A study of Rattus norvegicus with 200 samples.

Results

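Mitochondrial ribosomal proteins are encoded in the nucleus, made in the cytosol and imported into mitochondria, where they join the mitochondrially encoded ribosomal RNAs. The ribosome they form translates the few proteins that mitochondrial DNA encodes, all of them subunits of the oxidative phosphorylation complexes. Its large subunit joins amino acids and its small subunit reads the messenger RNA, and each holds proteins with a counterpart in bacterial ribosomes beside others found in mitochondria alone. The genes described here were all those with a symbol beginning Mrpl or Mrps followed by a number and a mean of at least 1 CPM (counts scaled to the same total in every library) over all libraries. Of 75 matching symbols 73 passed, out of 20361 genes in the count table. Mrpl1, at a mean of 0.54 CPM, and Mrps28, at 0.08 CPM, fell outside, while Mrpl30, at 1.02 CPM, and Mrpl34, at 2.20 CPM, were the lowest inside. The 73 members comprise 47 proteins of the large subunit, 25 of the small subunit and Mrps36. Of the ribosomal members 41 were classed as having a bacterial counterpart and 31 as found in mitochondria alone. Mrps30 and Mrps18a carry small subunit names but belong to the large subunit, and Mrps36 (Kgd4 in RefSeq) is now known as a part of the 2-oxoglutarate dehydrogenase complex.

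The study profiled polyadenylated RNA of brain microglia, the resident macrophages of the brain, from adult wild-type male Wistar rats in 200 bulk libraries. Rats ate a high-fat diet (HFD) ad libitum, an HFD in the dark phase only (HFD dark-feeding), an HFD in the light phase only (HFD light-feeding), or standard chow on the same 3 schedules. Cells were collected at Zeitgeber time (ZT) 2, 6, 10, 14, 18 and 22, with 5 to 7 libraries per treatment and time and 33 or 34 per treatment. Which libraries share a rat is not in the labels, and the p-values refer to spread among libraries only. The titles number HFD and chow libraries in separate series, so diet and any difference between those series cannot be told apart. Total counts were 3.78 to 11.64 M (10 to the power 6) per library, with a median of 7.55 M. All 19 microglial markers were detected, but their summed level, a mean of 1148 to 1352 CPM per treatment, lay below that of the oligodendrocyte markers (14960 to 17500 CPM), the neuron markers (3697 to 3795 CPM) and the astrocyte markers (1721 to 1892 CPM). These sums are of counts not scaled for length, over lists of different size, and the makeup of the libraries by cell type was not tested. In bulk RNA, fewer cells of a type and less RNA per cell cannot be told apart.

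The promoters of these genes are shown because the members are made from many separate loci. RefSeq promoter sequences (GRCr8, 250 bases before to 50 bases after the annotated start) were matched by gene identifier for 60 members, as 62 promoters. Motifs were searched on both strands. The letters CCGGAAG, bound by ETS factors such as GABPA, were in the promoters of 21 members (35.0%), against 9.63% of all genes with a promoter, 17.0% of the genes tested here and 31.7% of cytosolic ribosomal protein genes. AAGATGGC, the letters of the YY1 motif, were in 15 members (25.0%), against 3.62% of all genes, 5.35% of tested genes and 7.94% of cytosolic ribosomal protein genes. The NRF1 motif, GCGC on either side of 2 free bases, was in 12 members (20.0%), against 6.34% of all genes and 12.7% of tested genes, and its form with AT as the free bases was in 4 of those (6.67%), against 0.954% and 1.81%. The E-box CACGTG, the letters that clock proteins bind, was in 6 members (10.0%), against 7.08% of all genes and 9.74% of tested genes, and the cyclic AMP response element TGACGTCA was in 1 (1.67%), against 2.0% of all genes. ETS letters lay within 100 bases of the start in 20 of their 21 members. YY1 letters lay after the start on the gene's own strand in 11 of their 15 members, between bases 1 and 31. A match is a description of these windows only.

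The promoters below are written 5′ to 3′ on the gene's strand, with ETS, YY1 and NRF1 letters of either strand in capitals. Mrpl46 (chr1:142116981-142117280, minus strand) starts 234 bases from Mrps11, which is read the other way. Mrps18b (chr20:2842756-2843055, plus) holds all 3 motifs, Mrps26 (chr3:138222074-138222373, plus) was rhythmic in 5 treatments, Mrps27 (chr2:32473954-32474253, plus) fell in all 3 diet comparisons and Mrps30 (chr2:52195855-52196154, minus) was higher under HFD light-feeding.
Mrpl46: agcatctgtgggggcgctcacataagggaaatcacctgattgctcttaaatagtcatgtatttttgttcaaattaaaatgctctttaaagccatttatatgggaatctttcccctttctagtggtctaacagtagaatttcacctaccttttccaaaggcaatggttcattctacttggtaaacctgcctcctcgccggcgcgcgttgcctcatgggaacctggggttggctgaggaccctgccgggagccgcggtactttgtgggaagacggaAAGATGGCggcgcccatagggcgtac
Mrps18b: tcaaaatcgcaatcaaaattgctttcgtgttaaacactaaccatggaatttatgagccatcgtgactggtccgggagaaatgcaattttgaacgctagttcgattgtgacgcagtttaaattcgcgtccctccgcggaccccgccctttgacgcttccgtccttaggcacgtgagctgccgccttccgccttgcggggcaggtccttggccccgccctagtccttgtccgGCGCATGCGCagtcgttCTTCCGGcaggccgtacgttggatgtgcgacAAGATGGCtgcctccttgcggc
Mrps26: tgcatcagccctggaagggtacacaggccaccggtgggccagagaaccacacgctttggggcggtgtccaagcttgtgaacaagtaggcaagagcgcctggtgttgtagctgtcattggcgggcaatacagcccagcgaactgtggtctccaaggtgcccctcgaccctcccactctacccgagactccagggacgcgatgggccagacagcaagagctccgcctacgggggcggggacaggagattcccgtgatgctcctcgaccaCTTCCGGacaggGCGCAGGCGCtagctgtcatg
Mrps27: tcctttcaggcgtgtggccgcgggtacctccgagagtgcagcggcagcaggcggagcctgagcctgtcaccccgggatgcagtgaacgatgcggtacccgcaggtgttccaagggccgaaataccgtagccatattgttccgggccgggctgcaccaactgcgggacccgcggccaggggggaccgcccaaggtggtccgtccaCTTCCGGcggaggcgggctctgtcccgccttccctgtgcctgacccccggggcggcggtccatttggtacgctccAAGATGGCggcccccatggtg
Mrps30: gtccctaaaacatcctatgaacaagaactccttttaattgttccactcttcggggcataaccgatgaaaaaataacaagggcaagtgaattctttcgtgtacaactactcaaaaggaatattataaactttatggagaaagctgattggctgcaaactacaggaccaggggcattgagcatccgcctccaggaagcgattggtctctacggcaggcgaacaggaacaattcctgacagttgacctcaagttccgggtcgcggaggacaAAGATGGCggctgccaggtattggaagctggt

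Members differed widely in transcript level. On the authors' length-adjusted FPKM scale the highest levels were those of Mrps26 (47.9 FPKM), a small subunit protein found in mitochondria alone, of Mrpl17 (46.5 FPKM), with a bacterial counterpart, and of Mrpl43 (31.3 FPKM), found in mitochondria alone. The lowest were Mrpl30 (0.65 FPKM), Mrpl50 (2.37 FPKM) and Mrpl40 (3.45 FPKM). By counts, which grow with transcript length, Mrps5 was the highest at 56.9 CPM. The spread between libraries of the same treatment and time was a coefficient of variation of 6.81% for Mrps5 and 48.0% for Mrpl30, the ends of the range. Mrpl53 stood out for its level, with 39.1% at a mean of 8.92 CPM and 1 library at 0.

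**Figure D1:**
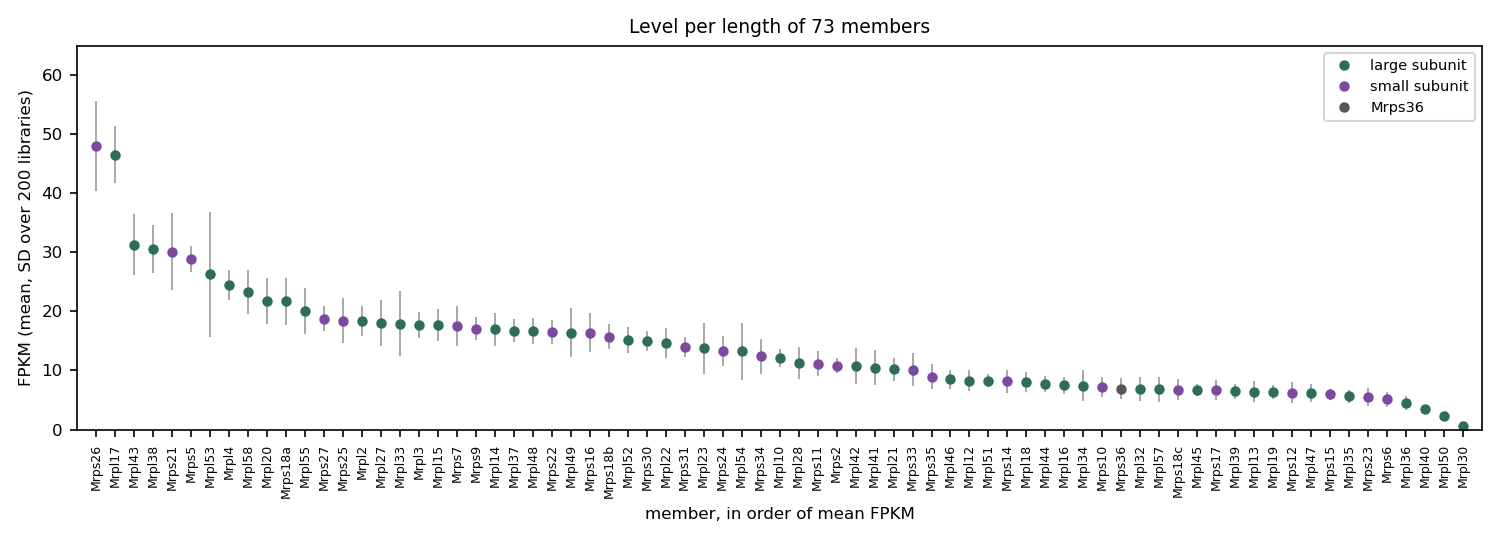
Mean FPKM of the members over all 200 libraries, ordered by level, with the SD over libraries as bars and large subunit, small subunit and Mrps36 in different colours. Mrps26 (47.9 FPKM) and Mrpl17 (46.5 FPKM) stand at the top and Mrpl30 (0.65 FPKM) at the bottom.

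Mitochondrial ribosomal protein transcripts had a lower mean and median summed level in HFD than in chow libraries on each schedule, by small amounts spread over many members. The members' summed level was lowest at 728, median 797 and highest 885 CPM under HFD ad libitum, against 752, 839 and 1012 CPM under chow ad libitum. Under dark-feeding it was lowest at 738, median 776 and highest 846 CPM for HFD, against 746, 827 and 1061 CPM for chow, and under light-feeding lowest at 726, median 781 and highest 878 CPM for HFD, against 734, 838 and 933 CPM for chow. The groups overlapped on each schedule, with the HFD median below the chow median. The means were 793.9 ± 35.0, 777.3 ± 24.8 and 784.2 ± 32.7 CPM under HFD ad libitum, dark-feeding and light-feeding (SD, n = 34, 33 and 33), against 841.5 ± 49.4, 852.1 ± 70.5 and 844.5 ± 45.0 CPM under chow on the same schedules (SD, n = 34, 33 and 33).

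**Figure D2:**
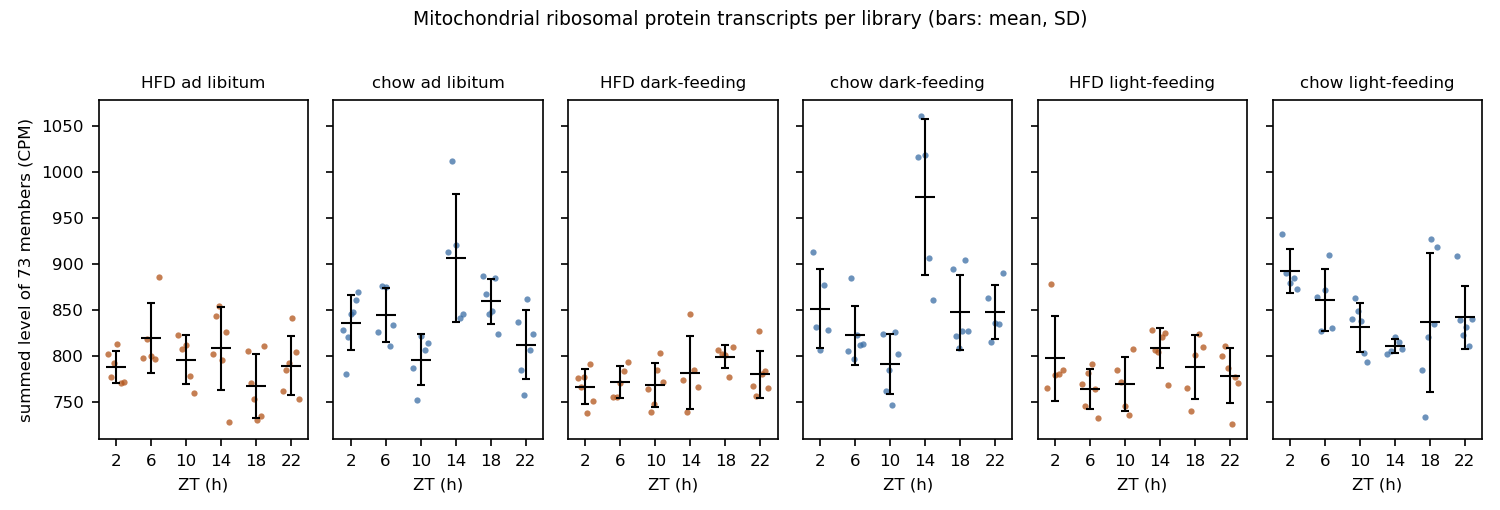
Summed CPM of the 73 members in each library (points) by treatment and Zeitgeber time, with mean and SD as bars, each HFD treatment left of chow on the same schedule. HFD libraries lie between 726 and 885 CPM, chow libraries between 734 and 1061 CPM, and the highest chow libraries belong to ZT14.

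Gene by gene, edgeR's quasi-likelihood test with time as a factor called 16 members lower and 0 higher under HFD than chow with ad libitum feeding (Benjamini-Hochberg adjusted p under 0.05 over 14393 genes), against a background of 10.1% of tested genes lower and 9.96% higher. Under dark-feeding 43 were lower and 0 higher, with a background of 23.1% lower and 22.8% higher. Under light-feeding 37 were lower and 4 higher, with a background of 25.1% lower and 25.2% higher. The members' median log2 fold change was -0.09, -0.15 and -0.13 on the 3 schedules, against -0.01, -0.01 and -0.01 over all tested genes, and 65, 68 and 62 of the 73 members lay below 0. In none of the 3 comparisons did a called member differ by 1.5-fold, and the largest sizes were 0.35 (Mrps34), 0.54 (Mrpl54) and 0.40 (Mrpl57) on the log2 scale. On all 3 schedules 12 members fell, namely Mrpl12, Mrpl28, Mrpl38, Mrpl41, Mrpl54, Mrpl58, Mrps7, Mrps11, Mrps18a, Mrps26, Mrps27 and Mrps34. These 12 are 16.4% of the members, against 6.02% of all tested genes lower on all 3 schedules. Under both restricted schedules 31 members (42.5%) were lower, against 18.1% of tested genes, and 19 members (26%) were called in none of the 3 comparisons, against 37.4% of tested genes. With the libraries of ZT 18 left out, 5 members were lower with ad libitum feeding, and with those of ZT 14 left out, 7 were lower with ad libitum feeding and 25 with dark-feeding. The share of all tested genes called in these refits is not given here, so these falls cannot be read as particular to the members.

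Markers of other cell types moved with diet beside these changes. Summed oligodendrocyte markers averaged 16840, 16890 and 17500 CPM under HFD ad libitum, dark-feeding and light-feeding, against 15210, 14960 and 15130 CPM under chow on those schedules, and 3, 8 and 8 of the 12 were higher and 0 lower. Summed microglial markers averaged 1186, 1148 and 1157 CPM under HFD, against 1344, 1352 and 1323 CPM under chow, with 8, 11 and 10 of 18 tested lower. Astrocyte markers were lower in 0, 11 and 11 of 13, endothelial markers in 1, 6 and 8 of 9, mural cell markers in 1, 5 and 5 of 6 and neuron markers in 2, 7 and 6 of 15. Markers of these lists called higher are not counted here. Summed neuron markers averaged 3759, 3697 and 3795 CPM under HFD, against 3717, 3708 and 3712 CPM under chow. Summed astrocyte markers averaged 1845, 1721 and 1829 CPM under HFD, against 1782, 1851 and 1892 CPM under chow. Summed erythrocyte markers averaged 266, 323 and 281 CPM under HFD, against 573, 775 and 642 CPM under chow, and their part in the members' change was not tested. With scores of 5 cell types as covariates, edgeR called 8 members lower with ad libitum feeding, 4 lower with dark-feeding (Mrpl12, Mrps5, Mrps25 and Mrps34) and 1 higher with light-feeding (Mrpl39), and called 4.48%, 2.17% and 6.3% of tested genes lower and 4.99%, 2.08% and 5.95% higher. The members' median log2 fold change in that fit was -0.09, -0.11 and -0.01 with ad libitum, dark- and light-feeding. The title numbers fall into runs, and with libraries of a run summed, 0 members were called with ad libitum feeding, 23 lower with dark-feeding, and 26 lower and 1 higher with light-feeding. Over all tested genes the summed runs called 0%, 10% and 15.3% lower and 0%, 10.7% and 18.9% higher, and the members' median was -0.07, -0.16 and -0.13.

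Both subunits were among the calls. Of 47 large subunit members 9 were lower under HFD with ad libitum feeding, 26 with dark-feeding and 20 with light-feeding, and of 25 small subunit members 7, 16 and 16 were. Among members with a bacterial counterpart 7, 22 and 19 of 41 were lower, and among those found in mitochondria alone 9, 20 and 17 of 31. No test of a difference between these classes was made.

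Mrpl12 is the stalk protein of the large subunit that recruits translation factors, and in human cells it also binds the mitochondrial RNA polymerase. Under dark-feeding it was lowest at 6.62, median 9.15 and highest 11.4 CPM for HFD, against 8.87, 11.5 and 18.9 CPM for chow. The groups overlapped, and the HFD median was near the lowest chow value. It was lower under HFD by 0.40 ± 0.06 on the log2 scale in that comparison (SE, edgeR adjusted p = 8.62e-08), with the means lower at 6 of 6 times. Under light-feeding Mrpl12 averaged 9.45 ± 1.30 CPM for HFD and 11.8 ± 1.85 CPM for chow (SD; adjusted p = 6.26e-07), and with ad libitum feeding 9.84 ± 1.70 CPM for HFD and 11.2 ± 2.02 CPM for chow (SD; adjusted p = 0.0173). Mrpl10, which anchors the stalk, was called lower with dark-feeding (log2 fold change -0.11 ± 0.04, SE; adjusted p = 0.0432), with log2 fold changes of 0.04 (adjusted p = 0.509) and 0.01 (adjusted p = 0.924) for ad libitum and light-feeding.

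Mrps34, a small subunit protein needed in mice for the stability of the small ribosomal RNA, was lowest at 4.52, median 6.85 and highest 8.72 CPM under HFD ad libitum, against 5.59, 8.17 and 13.6 CPM under chow ad libitum. The ranges overlapped, with the highest chow value well above the highest HFD value. Its log2 fold changes were -0.35 ± 0.06, -0.35 ± 0.06 and -0.25 ± 0.06 with ad libitum, dark- and light-feeding (SE; adjusted p = 0.000138, 1.51e-06 and 0.000389), with means lower at 6 of 6 times on each schedule. Mrps11 and Mrps7, small subunit proteins with bacterial counterparts, fell on the 3 schedules too. Mrps11 averaged 5.99 ± 0.79 CPM under HFD light-feeding and 7.58 ± 1.26 CPM under chow light-feeding (SD; log2 fold change -0.35, adjusted p = 1.6e-07). Mrps7 averaged 11.3 ± 1.57 CPM under HFD light-feeding and 13.6 ± 2.27 CPM under chow light-feeding (SD; log2 fold change -0.26, adjusted p = 2.52e-05). Mrpl46, the large subunit protein that starts beside Mrps11, had log2 fold changes of -0.20 (adjusted p = 0.00452), -0.17 (0.00764) and -0.10 (0.201) with ad libitum, dark- and light-feeding. Mrps15, with a bacterial counterpart, was lower with ad libitum feeding (-0.18 ± 0.05, SE; adjusted p = 0.00454) and had adjusted p = 0.277 and 0.367 with dark- and light-feeding.

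Mrpl54, a large subunit protein found in mitochondria alone, had the largest log2 fold change of the members in the dark-feeding comparison. It was lowest at 1.90, median 3.47 and highest 4.47 CPM under HFD dark-feeding, against 2.23, 4.71 and 10.3 CPM under chow dark-feeding. The groups overlapped in their lower parts, and the chow range ran far above the HFD maximum. Its log2 fold change there was -0.54 ± 0.09 (SE; adjusted p = 4.01e-06). Mrpl28, of the large subunit with a bacterial counterpart, averaged 8.26 ± 1.34 CPM under HFD light-feeding and 10.3 ± 1.44 CPM under chow light-feeding (SD; log2 fold change -0.32, adjusted p = 1.39e-07). Mrpl43 averaged 11.7 ± 1.44 CPM under HFD light-feeding and 13.7 ± 1.64 CPM under chow light-feeding (SD; log2 fold change -0.22, adjusted p = 2.78e-05). Mrps25 and Mrps26, small subunit proteins found in mitochondria alone, had log2 fold changes of -0.29 (adjusted p = 1.48e-05) and -0.23 (adjusted p = 4.72e-06) under dark-feeding.

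Other members are known for a defined task within the ribosome. Mrpl58, a peptidyl-tRNA hydrolase set in the large subunit that frees stalled ribosomes, averaged 11.9 ± 1.73 CPM under HFD ad libitum and 13.7 ± 1.88 CPM under chow ad libitum (SD; log2 fold change -0.21, adjusted p = 0.00178). Mrps12, the small subunit protein beside the decoding centre, had log2 fold changes of -0.10, -0.37 and -0.32 with ad libitum, dark- and light-feeding (adjusted p = 0.408, 0.00195 and 0.00196). Mrps18a, Mrps18b and Mrps18c are relatives of bacterial S18, though Mrps18a and Mrps18b were classed above with members found in mitochondria alone. Of the 3, Mrps18a fell on the 3 schedules and Mrps18b fell with dark- and light-feeding (adjusted p = 0.00714 and 0.000163). Mrps18c was called in none, at 3.56, 3.41 and 3.56 CPM under HFD ad libitum, dark- and light-feeding, against 3.72, 3.66 and 3.65 CPM under chow. Mrpl45, which holds the ribosome at the inner membrane, was called in none either (adjusted p = 0.247, 0.114 and 0.148), and Mrpl44, with an RNase III fold, was lower under dark-feeding (adjusted p = 0.0428). Mrps36 was lower with dark- and light-feeding (adjusted p = 0.0284 and 0.0474).

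Under HFD light-feeding 4 members were higher than under chow light-feeding. Mrps30, of the large subunit, was lowest at 15.1, median 17.8 and highest 23.1 CPM under HFD light-feeding, against 13.1, 17.0 and 20.1 CPM under chow light-feeding, overlapping over most of the range (log2 fold change 0.11 ± 0.03, SE; adjusted p = 0.00523). Mrpl47, a large subunit protein near the exit tunnel, averaged 7.70 ± 1.00 CPM under HFD light-feeding and 6.94 ± 1.17 CPM under chow light-feeding (SD; log2 fold change 0.15, adjusted p = 0.0157). Mrpl40 averaged 7.56 ± 1.17 CPM under HFD light-feeding and 6.85 ± 1.11 CPM under chow light-feeding (SD; 0.15, adjusted p = 0.0269). Mrps2, of the small subunit with a bacterial counterpart, averaged 21.8 ± 2.23 CPM under HFD light-feeding and 20.7 ± 2.31 CPM under chow light-feeding (SD; 0.08, adjusted p = 0.0454).

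**Figure D3:**
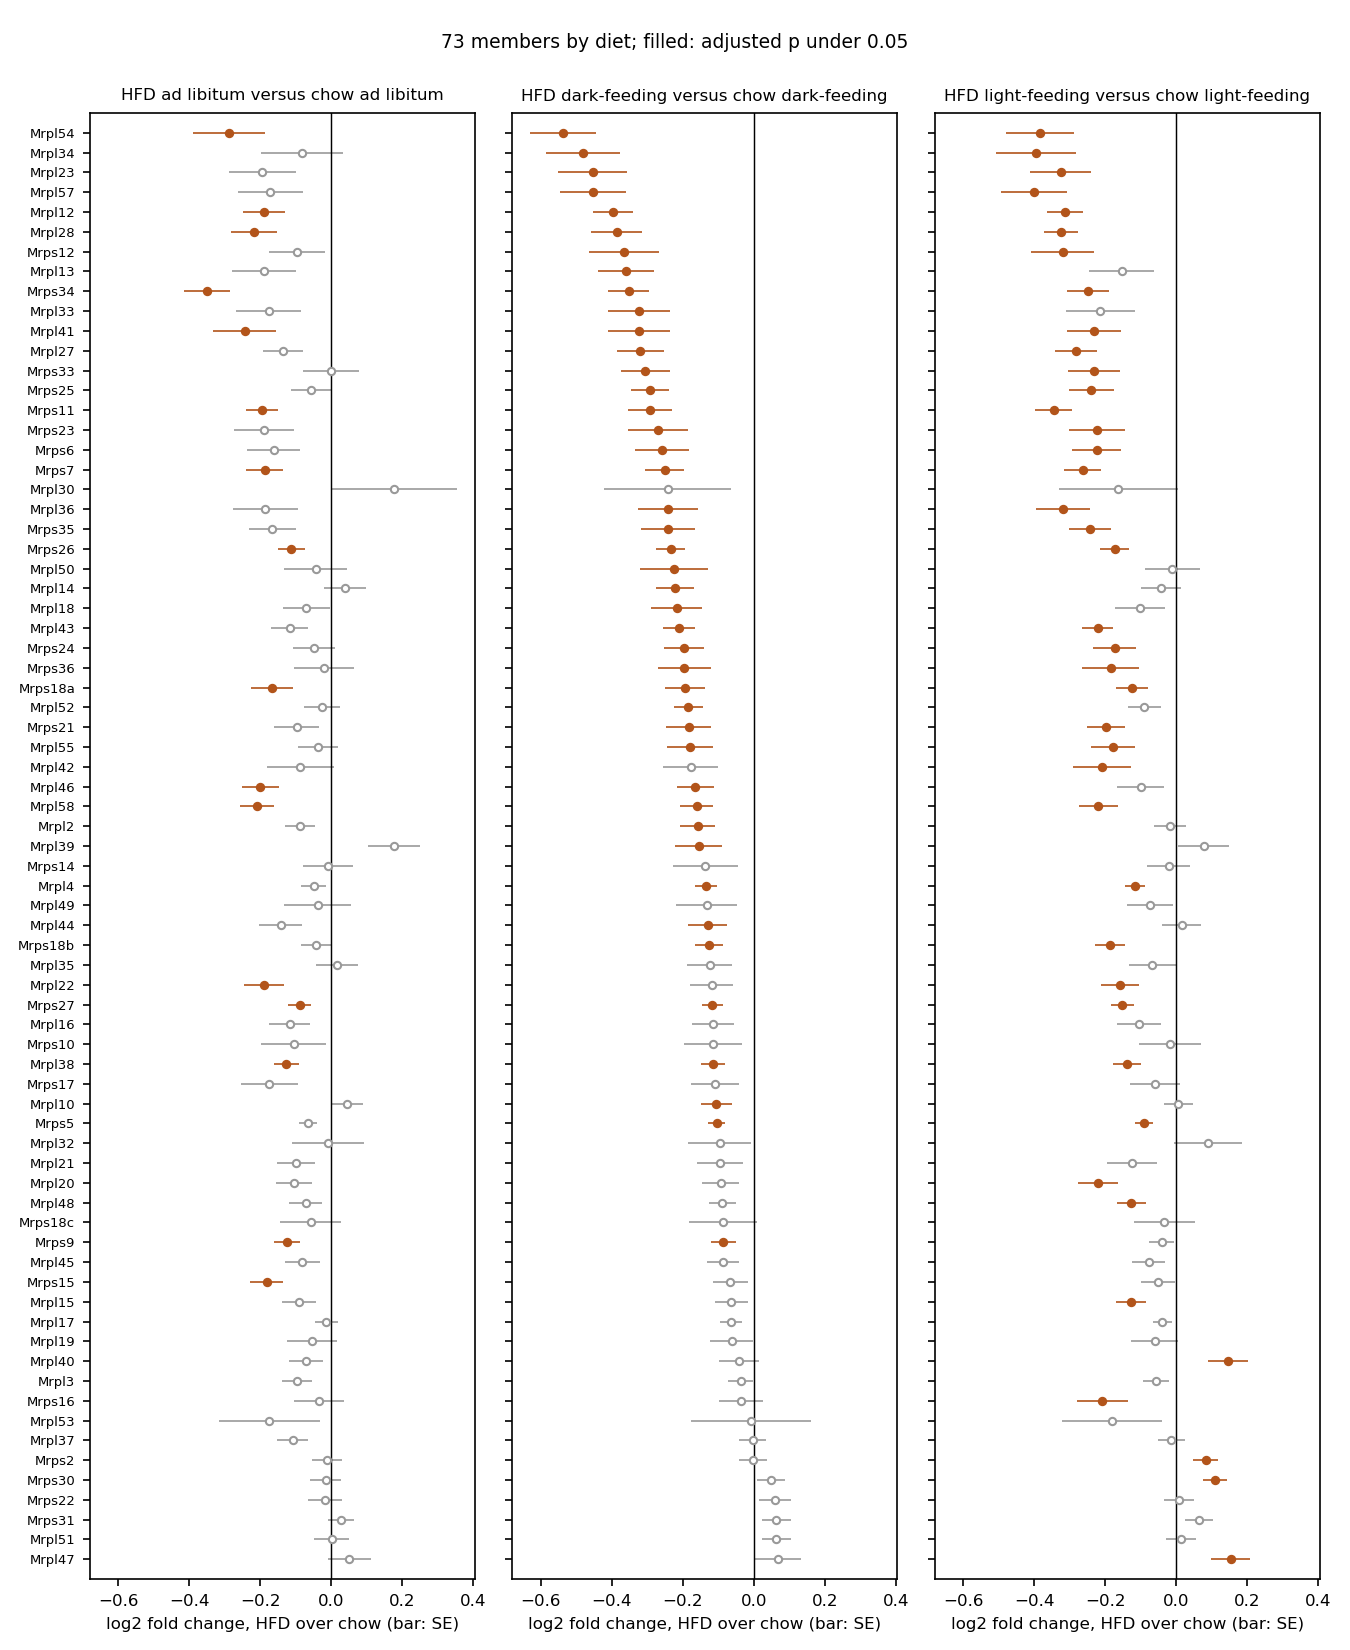
Log2 fold change of HFD over chow for each member on each schedule, with the SE as bars and members called by edgeR (adjusted p under 0.05) as filled points. Most points lie left of 0, with 65, 68 and 62 of 73 members below 0 under ad libitum, dark- and light-feeding, and Mrps30, Mrpl47, Mrpl40 and Mrps2 called higher under light-feeding.

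The members are short transcripts, and short transcripts were lower under HFD as a class. Length in kb was inferred from the deposited values, as the median over libraries of CPM divided by FPKM. It is not an annotated transcript length. The members' median length was 0.713 kb, against 2.37 kb over all tested genes, and all 73 lay below that. In the shortest of 10 equal length classes, up to 0.877 kb, which holds 46 members, the median log2 fold change of the class was -0.10, -0.18 and -0.17 with ad libitum, dark- and light-feeding, and that of the members in it -0.11, -0.20 and -0.19. In the longest class the median was 0.06, 0.12 and 0.10. Members lower in the shortest, middle and longest part of the member list, split evenly by length, numbered 4, 7 and 5 with ad libitum feeding, 16, 18 and 9 with dark-feeding, and 18, 12 and 7 with light-feeding.

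**Figure D4:**
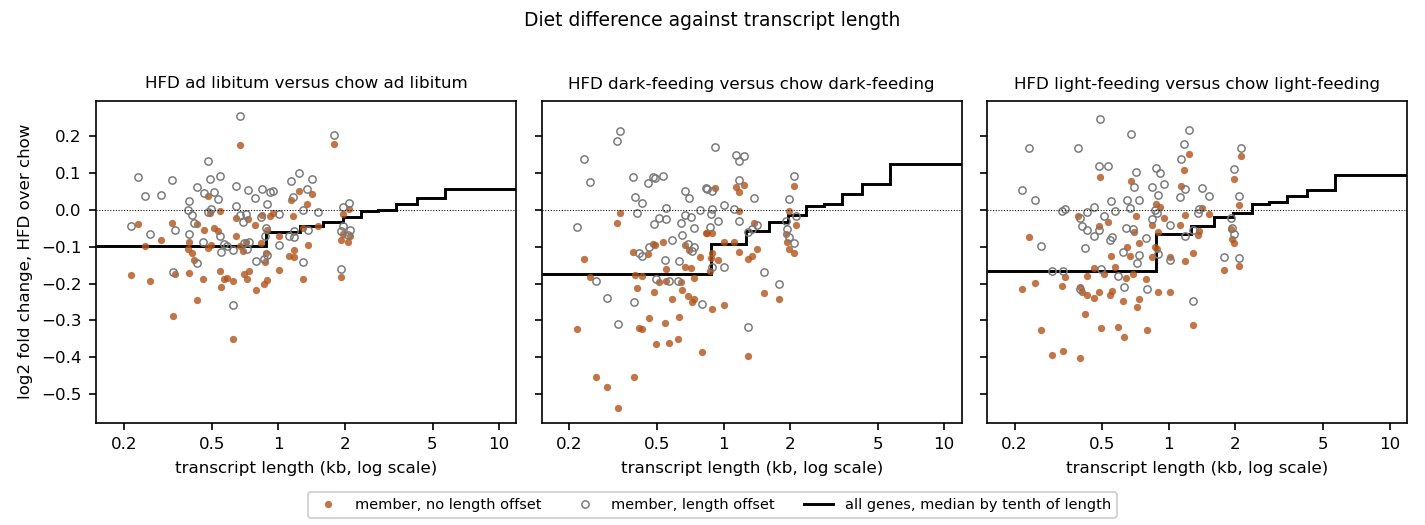
Log2 fold change of HFD over chow against transcript length inferred from CPM and FPKM, in kb on a log axis. A step line gives the median of all tested genes in each of 10 length classes. Filled points are members, and open points are members fitted with the length offset. In the shortest class the median of all genes is -0.10, -0.18 and -0.17 with ad libitum, dark- and light-feeding, below 0 on each schedule.

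Fitted with a per-library offset that removes a smooth trend of counts on the inferred transcript length, fewer members were called. With ad libitum feeding 3 were lower and 1 higher (background 6.77% lower and 8.17% higher), with dark-feeding 10 lower and 4 higher (17.1% lower and 22.1% higher), and with light-feeding 6 lower and 8 higher (19.8% lower and 26.7% higher), and the members' median was -0.01, -0.03 and -0.01. Mrpl12, Mrpl28, Mrpl57, Mrps7 and Mrps27 were lower under both restricted schedules with the offset, Mrpl12 in all 3 comparisons, and Mrps30 and Mrps31 were higher under both restricted schedules. For Mrpl12 the log2 fold change with the offset was -0.32 ± 0.05 under dark-feeding (SE; adjusted p = 1.66e-06) and -0.25 ± 0.05 under light-feeding (SE; adjusted p = 1.32e-05). Mrps27, an RNA-binding protein of the small subunit, has a length of 2.08 kb, near the upper end of the members at 2.12 kb, and its log2 fold change with the offset was -0.09 ± 0.03 under dark-feeding (SE; adjusted p = 0.0145) and -0.13 ± 0.03 under light-feeding (SE; adjusted p = 0.00113). Some calls of other members named above were lost with the offset and some were kept. Mrpl43 had a log2 fold change of -0.04 (adjusted p = 0.356) under light-feeding, Mrps25 -0.10 (0.0809) and Mrps26 -0.09 (0.0521) under dark-feeding, and Mrps11 -0.11 (0.116), Mrpl46 -0.13 (0.0567) and Mrpl58 -0.115 (0.132) with ad libitum feeding. Mrps34 kept its call with ad libitum feeding (-0.26, adjusted p = 0.000675) and dark-feeding (-0.19, 0.00251) and not with light-feeding (-0.115, 0.0871). Calls were also kept by Mrps11 under light-feeding (-0.21, 0.000275), Mrpl54 under dark-feeding (-0.31, 0.000811) and Mrps15 with ad libitum feeding (-0.16, 0.0174). Mrps30 had log2 fold changes of 0.13 ± 0.04 (adjusted p = 0.00559) under dark-feeding and 0.18 ± 0.04 (adjusted p = 6.82e-05) under light-feeding with the offset (SE).

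Other lists of the mitochondrial and ribosomal machinery are set beside the same backgrounds. Without offsets 10.1%, 23.1% and 25.1% of all tested genes were lower with ad libitum, dark- and light-feeding, and 9.96%, 22.8% and 25.2% higher. With the length offset 6.77%, 17.1% and 19.8% were lower and 8.17%, 22.1% and 26.7% higher. Without offsets, cytosolic ribosomal protein genes, also short, were lower in 28, 61 and 54 of 75 under HFD with ad libitum, dark- and light-feeding (1 higher with light-feeding), and complex I subunits, partners of the mitochondrially encoded ND proteins, in 11, 29 and 28 of 35 (1 higher with light-feeding). With the length offset, cytosolic ribosomal protein genes were lower in 14, 9 and 7 and higher in 0, 10 and 13. Complex I subunits were lower in 1, 14 and 12 (2.86%, 40% and 34.3%) and higher in 0, 1 and 3 with that offset. Mitochondrial ribosome assembly factors without offsets were lower in 3, 6 and 5 of 25 and higher in 1, 2 and 3, mitochondrial translation factors were lower in 2, 3 and 4 of 14 and higher in 1, 2 and 1, and mitochondrial aminoacyl-tRNA synthetases were lower in 3, 3 and 3 of 17 and higher in 1, 2 and 1. Factors of mitochondrial DNA transcription and replication were lower in 2, 1 and 1 of 10 and higher in 2, 1 and 2. Regulators of mitochondrial gene expression were lower in 1, 1 and 2 of 9 and higher in 1, 1 and 2. Of the 5 ribosomal subunits with other symbols (Dap3, Gadd45gip1, Chchd1, Aurkaip1 and Ptcd3) 3 were lower and 1 was higher in each comparison.

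Within a diet the feeding schedule moved few members. With HFD, dark-feeding lowered 2 relative to ad libitum, Mrps25 and Mrps33 (background 2.98% lower and 1.72% higher), and light-feeding lowered 1, Mrps11 (5% lower and 5.7% higher). Mrps25 averaged 7.42 ± 1.01 CPM under HFD dark-feeding and 8.59 ± 1.33 CPM under HFD ad libitum (SD; log2 fold change -0.20 ± 0.05, SE, adjusted p = 0.0139), and Mrps33, of the same subunit, averaged 4.70 ± 0.84 CPM under HFD dark-feeding and 5.77 ± 1.39 CPM under HFD ad libitum (SD; -0.28 ± 0.07, SE, adjusted p = 0.0179). Mrps11 averaged 5.99 ± 0.79 CPM under HFD light-feeding and 6.81 ± 0.94 CPM under HFD ad libitum (SD; -0.19 ± 0.05, SE, adjusted p = 0.00958). With chow, 1 was lower under light-feeding, Mrpl40, at 6.85 ± 1.11 CPM under light-feeding and 7.83 ± 0.98 CPM ad libitum (SD; -0.19 ± 0.05, SE, adjusted p = 0.0455; background 1.07% lower and 0.528% higher). Chow dark-feeding against ad libitum called 0 members with edgeR (background 0% lower and 0% higher), with 8 at an unadjusted p under 0.05 and 0 by DESeq2. The smallest p-values were those of Mrpl14 and Mrpl4, both with adjusted p = 0.377. Calls of these schedule comparisons were lost with the marker scores, and with a spline of the title number. Light-feeding against dark-feeding called 0 members with edgeR and 0 with DESeq2 on either diet, with 3 at an unadjusted p under 0.05 for HFD (background 0.0347% lower and 0.0486% higher) and 1 for chow (0% lower and 0% higher). The smallest p-values there were those of Mrpl54 and Mrpl38 for HFD and of Mrpl14 and Mrpl20 for chow.

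The dependence of the diet difference on schedule was called for 1 member. The diet by schedule term called Mrpl40 for light-feeding (0.21 ± 0.07, SE; adjusted p = 0.0483; background 5.98% higher and 3.84% lower), with log2 fold changes of HFD over chow of 0.15 for light-feeding and -0.07 for ad libitum feeding. It missed the threshold with DESeq2 (adjusted p = 0.0615) and with relative log expression size factors (adjusted p = 0.0537). For dark-feeding the term called 0 members with edgeR (background 0.236% higher and 0.556% lower) and 0 with DESeq2, with 13 at an unadjusted p under 0.05. Mrpl39 was nearest, at -0.33 ± 0.10 (SE; adjusted p = 0.069), and Mrpl14 next, at -0.25 ± 0.08 (SE; adjusted p = 0.0803).

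A fit of a 24 h cosine and sine asked which members varied over the day within each treatment. It called 4 members under HFD ad libitum (background 19.6% of tested genes), 11 under HFD dark-feeding (27.5%), 0 under HFD light-feeding (0.841%), 2 under chow ad libitum (4.56%), 14 under chow dark-feeding (22.9%) and 5 under chow light-feeding (20.3%). Under HFD light-feeding DESeq2 called 0 too and 6 members reached an unadjusted p under 0.05, with Mrps7 and Mrpl20 nearest (adjusted p = 0.2 and 0.211). The libraries of a treatment fell into 12 to 17 runs of neighbouring title numbers from the same time, and no rhythm fit summed the runs. Most HFD ad libitum titles followed the order of the times, so time of day and title order cannot be fully told apart there. In each treatment the share of members called was below the background. Called in some treatment were 24 members, and in 3 or more treatments 3, Mrps26, Mrpl38 and Mrpl17. No share of all tested genes is given for counts over several treatments. Under dark-feeding 8 of 11 called members on HFD had a fitted peak after ZT 12, between ZT 16.3 and 20.6, beside 49% of all genes called there. On chow dark-feeding it was 11 of 14, between ZT 14.5 and 20.7, beside 53.9% of all genes called. In the other treatments with calls fewer members peaked after ZT 12. They were 1 of 4 under HFD ad libitum, 1 of 2 under chow ad libitum and 1 of 5 under chow light-feeding. The matching shares of all genes called were 53.7%, 50.4% and 58.8%. Under dark-feeding on both diets 6 members were called (6 of the 11 and 6 of the 14), namely Mrpl15, Mrpl17, Mrpl38, Mrpl51, Mrps21 and Mrps26.

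Mrps26 was called in 5 of 6 treatments, with its fitted peak between ZT 5.61 and ZT 7.99. Its mean under HFD ad libitum was 34.9, 34.7, 33.9, 29.9, 26.9 and 28.8 CPM at ZT 2, 6, 10, 14, 18 and 22. Under chow ad libitum Mrps26 averaged 34.4, 39.0, 36.8, 34.7, 30.9 and 29.5 CPM at those times. The values were high from ZT 2 to ZT 10 and low at ZT 18 and ZT 22 under both. The fitted peak of Mrps26 was at ZT 6.06 under HFD ad libitum, 7.06 under HFD dark-feeding, 7.99 under chow ad libitum, 5.61 under chow dark-feeding and 6.22 under chow light-feeding, with peak-to-trough folds of 1.31, 1.32, 1.3, 1.27 and 1.22 (adjusted p = 0.00143, 0.00257, 0.00429, 0.0174 and 0.0271). Under HFD light-feeding Mrps26 averaged 28.6, 31.4, 30.1, 32.3, 28.8 and 36.0 CPM at the 6 times and was not called (fold 1.07, adjusted p = 0.822). With the marker scores the rhythm of Mrps26 was called in 2 of the 5 treatments and not under HFD dark-feeding (adjusted p = 0.197), chow dark-feeding (0.202) or chow light-feeding (0.561), and with the length offset not under HFD ad libitum (0.074) or chow light-feeding (0.0848). Whether its rhythm differed between treatments was not tested.

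Mrpl38, of the large subunit's central protuberance, was called in 3 treatments with its fitted peak after ZT 18. Under HFD dark-feeding it averaged 34.6, 34.6, 32.4, 36.1, 39.8 and 36.7 CPM at ZT 2 to 22, and under chow dark-feeding 39.2, 36.3, 33.1, 37.4, 44.1 and 42.6 CPM. The lowest mean of Mrpl38 was at ZT 10 and the highest at ZT 18 on both. Its fitted peak was at ZT 19.1 under HFD dark-feeding, 18.3 under chow ad libitum and 20.7 under chow dark-feeding (folds of 1.18, 1.28 and 1.31; adjusted p = 0.0338, 0.00624 and 0.000479). Under HFD dark-feeding the call of Mrpl38 was lost with the marker scores (adjusted p = 0.337) and with time as a factor (0.0984). Mrpl17 peaked at ZT 16.1, 17.5 and 18.3 under HFD ad libitum, HFD dark-feeding and chow dark-feeding (folds of 1.16, 1.16 and 1.24; adjusted p = 0.0169, 0.0388 and 0.00333).

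The other calls differed from treatment to treatment, and no difference between treatments was tested. Under HFD ad libitum Mrpl54 was called with a fold of 1.55 and a peak at ZT 6.57 (adjusted p = 0.0423). Under HFD dark-feeding Mrpl51 (fold 1.29, ZT 17.3) and Mrps21 (fold 1.45, ZT 20.6) had the smallest adjusted p beside Mrps26, at 0.00149 and 0.0029. Mrpl30, the member nearest to the level minimum, had the largest fold, 2.18 (adjusted p = 0.018), from a mean of 0.91 CPM. Under chow dark-feeding Mrpl45 followed Mrpl38 and Mrpl17, with a fold of 1.37 and a peak at ZT 15.9 (adjusted p = 0.00344). Under chow light-feeding Mrps27 (fold 1.21, ZT 7.92) and Mrpl35 (fold 1.29, ZT 19.9) were called (adjusted p = 0.0015 and 0.0351).

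**Figure D5:**
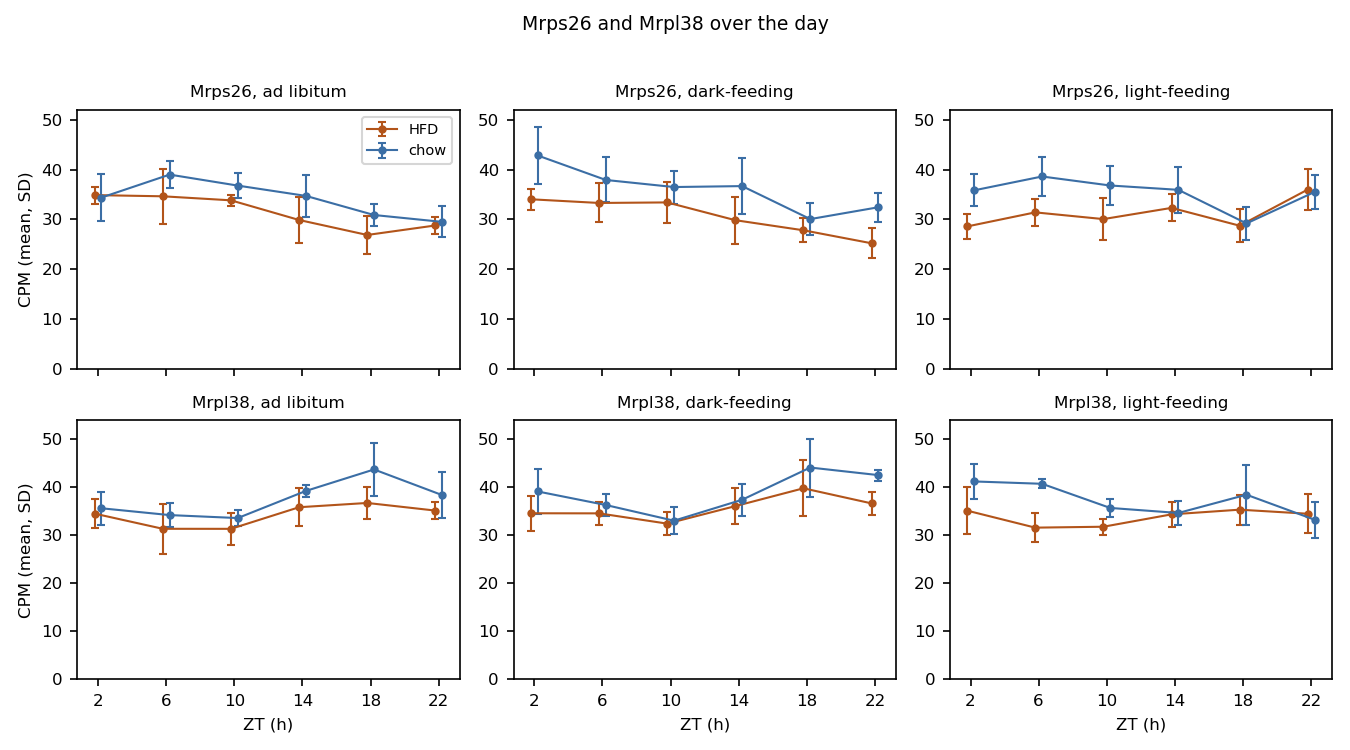
Mean CPM by Zeitgeber time with the SD over libraries for Mrps26 (upper row) and Mrpl38 (lower row) under each schedule, HFD and chow in different colours. Mrps26 has its highest mean at ZT 2 or ZT 6 except under HFD light-feeding, where it is at ZT 22, and Mrpl38 is highest at ZT 18 under dark-feeding.

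The members' summed level varied little over the day in most treatments. Its highest mean over a time was 1.07, 1.04 and 1.06 times its lowest under HFD ad libitum, dark- and light-feeding, against 1.14, 1.23 and 1.1 under chow. The chow dark-feeding value came from ZT 14, at 972.5 ± 84.5 CPM (SD, n = 5), against 790.6 ± 32.6 CPM at ZT 10 (SD, n = 6). Of those ZT 14 libraries 3, with title numbers 49, 50 and 51, had summed member levels of 1016, 1061 and 1018 CPM, and the other two 906.7 and 860.8 CPM. The summed level of 1392 non-member genes of the shortest length class was 42040, 46260 and 36870 CPM in those 3 libraries, and 29830 and 25970 CPM in the other two. Under chow ad libitum at ZT 14 the libraries with the adjoining title numbers 52 and 53 had summed member levels of 913.4 and 1012 CPM beside short-gene sums of 32670 and 41930 CPM, and the other libraries there had short-gene sums of 23650 to 25400 CPM. As a share of that sum, members averaged 3.29%, 3.29% and 3.26% under HFD ad libitum, dark- and light-feeding, against 3.23%, 3.13% and 3.14% under chow. That share was 2.77% in chow dark-feeding libraries at ZT 14. Without ZT 14, 25 members were lower under HFD dark-feeding than under chow dark-feeding, in place of 43. The matching share of all tested genes is not given.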

How the data were processed

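Expected counts per gene were deposited by the authors for 200 libraries, with 8.03% of entries not whole. FPKM values were deposited by the authors for 17611 genes. Per the labels' protocols the libraries were strand-specific after poly(A) enrichment, and per the submitters' processing notes the build was Rnor 6.0. The labels and headers used here name no aligner or counter. The members and lists were chosen with earlier results of these data known. Expected counts were rounded, since the design had foreseen whole counts, and genes were filtered with filterByExpr to 14393. TMM normalisation and edgeR 4.0.16 quasi-likelihood tests (R 4.3.3) used 2 treatments at a time with Zeitgeber time as a factor, or a 24 h cosine and sine within a treatment, with Benjamini-Hochberg adjustment over all genes tested and a threshold of 0.05. The scripts were tested on simulated data. Alternatives were RLE factors, no filter, DESeq2 1.42.0, limma 3.58.1 on log2(FPKM + 0.1), length offsets (natural spline, 5 degrees of freedom), marker scores, summed runs of title numbers, a spline of title number with 3 degrees of freedom, and leaving out each time. Length offsets and the leaving out of ZT 14 in the rhythm fits were added after seeing the data. CPM values were counts divided by the library total over the filtered genes times its TMM factor (0.946 to 1.088). The mean CPM used to choose members was relative to the total over all genes. No pair among 19900 held identical values, and the smallest chi-square per degree of freedom between libraries was 2.07. Reads that fit several gene copies, such as processed pseudogenes, may be split by the authors' estimate. Members are named by rule: per diet comparison the 5 with the smallest adjusted p in each direction, elsewhere 3 (or the 2 with the smallest p where none was called), the 3 highest and 3 lowest in FPKM, and a list of members with known roles. Others named in counts of 5 or fewer, or in lists of names, were chosen after their values were seen. A few genes are not analysed here.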

Additional observations from a re-analysis of the deposited data

Results flagged for a closer look

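Within 36 combinations of treatment and time, 6 had a library whose summed member level stood apart from the others by Dixon's criterion, where chance gives about 1 in 20. The highest library was 885.2 CPM under HFD ad libitum at ZT 6, 878.3 CPM under HFD light-feeding at ZT 2, 885.0 CPM under chow dark-feeding at ZT 6, 932.9 CPM under chow light-feeding at ZT 2 and 908.3 CPM under chow light-feeding at ZT 22. The lowest was 777.2 CPM under HFD dark-feeding at ZT 18. For Mrps26 the criterion was met in 2 of 36 combinations, by the lowest library at ZT 22 under HFD ad libitum (25.47 CPM) and under HFD light-feeding (28.18 CPM). For Mrpl38 it was met in 3, by the highest library under HFD dark-feeding at ZT 6 (38.87 CPM) and chow dark-feeding at ZT 10 (38.24 CPM), and by the lowest under chow light-feeding at ZT 18 (26.67 CPM). The diet difference of Mrpl40 differed between light-feeding and ad libitum feeding by 0.212 on the log2 scale (edgeR adjusted p = 0.0483).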

How the results depend on the processing

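Of 175 alternative counts of called members, 120 stayed within 1.5 times, 52 moved further and 3 had the opposite majority direction. Of 513 alternatives for single members, 423 kept their side of the threshold, 90 lost the call and 0 reversed direction with a call in either fit. For rhythms no direction was compared. The causes were not tested. Shares of all tested genes are not given beside the counts below, so their changes cannot be read as particular to the members. For HFD against chow with ad libitum feeding (16 called), length offsets called 4, marker scores 8 and summed runs 0, and leaving out a time gave 5 (without ZT 18) to 20. With dark-feeding (43), length offsets called 14, marker scores 4, runs 23, and leaving out a time gave 25 (without ZT 14) to 42. With light-feeding (41), length offsets called 14 (8 higher, 6 lower), marker scores 1 (higher), runs 27, and leaving out a time gave 31 to 45. For chow light-feeding against ad libitum (1), no filter, FPKM, marker scores, runs and the title spline called 0, and leaving out a time gave 0 to 6, with the 6 found without ZT 14 (5 higher, 1 lower). For HFD dark-feeding against ad libitum (2), DESeq2 called 4, marker scores, runs and the spline 0, and leaving out a time gave 0 (without ZT 14) to 5. For HFD light-feeding against ad libitum (1), marker scores, runs and the spline called 0 and leaving out a time gave 0 to 5. The interaction with light-feeding (1) was 0 with RLE, no filter, DESeq2 and marker scores. Rhythm calls under HFD ad libitum (4) were 2 without a filter, 1 with marker scores, 1 with time as a factor and 2 without ZT 14. Under HFD dark-feeding (11) they were 1 with marker scores and 4 with time as a factor, and under HFD light-feeding (0) 1 with time as a factor. Under chow dark-feeding (14) they were 1 with marker scores and 35 with time as a factor. Under chow light-feeding (5) they were 2 without a filter, 0 with marker scores, 3 with length offsets and 2 without ZT 14. No paired analysis was possible because replicate numbers only count libraries within a treatment, and of 69 title numbers that occur on both diets 14 belong to a common time. Depth limits Mrpl30, with 2 libraries at 0.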
